A study of Mus musculus with 8 samples.

Results

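The carbonic anhydrases described here are 10 mouse genes, Car2, Car3, Car4, Car5b, Car7, Car8, Car9, Car12, Car13 and Car14, chosen by name and found by Ensembl identifier among the 39056 genes counted in each heart. RNA was sequenced from heart tissue of 4 male HVCN1 null mice (HVCN1-/-, which lack the voltage-gated proton channel) and 4 male wild-type (WT) mice of the C57BL/6 background, all 3 months old, with 1 library per heart. The hearts are named 1 to 4 for HVCN1 null and 5 to 8 for WT. No treatment separates the groups, and no batch is given in the sources used here. Total counts ran from 25851255 to 38874640 per heart. Hvcn1, the targeted gene, gave 6, 6, 1 and 3 counts in HVCN1 null hearts and 102, 49, 99 and 68 counts in WT hearts, so every library matched its label. Cardiomyocyte markers summed to between 54262 and 70543 CPM (counts scaled to library size) per heart, whereas lung epithelium markers did not exceed 0.0848 CPM. Atrial markers differed widely, with sums from 172 and 185 CPM in WT hearts 8 and 6 to 8706 CPM in WT heart 7, so the libraries did not hold equal shares of atrial RNA.

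Carbonic anhydrases are zinc enzymes that convert CO2 and water to bicarbonate and a proton, and back. They differ in where they sit: Car2, Car3, Car7 and Car13 are cytosolic, Car5b is mitochondrial, Car4 is anchored to the outer face of the membrane by a lipid, and Car9, Car12 and Car14 span the membrane with the active site outside. Car8 belongs to the family by sequence but is catalytically inactive because a ligand of the zinc is missing. In the heart, these enzymes work beside bicarbonate transporters and proton exchangers that set the pH of the myocyte. HVCN1 is itself a proton exit route, and the comparison asks whether transcripts of the enzymes differ when it is absent.

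The difference between Car8 and the active enzymes can be read in the coding sequence around the first pair of zinc ligands. The 27 bases shown for each gene are its 9 codons around those ligands, taken from its GENCODE M21 transcript, and the capitals mark codons 4 and 6 of the window, which encode the ligands. The inactive Car8 is shown beside the 4 active members with the highest mean level, from coding positions 271 to 297 for Car2 and Car3, 331 to 357 for Car4, 316 to 342 for Car14 and 340 to 366 for Car8.
Car2: atccagtttCACtttCACtggggctca
Car3: cgccaattcCATcttCACtggggctcc
Car4: gtacagttgCACctgCACtggtcaaat
Car14: gcccagctcCACctgCACtggggtcag
Car8: tatgaagttAGAtttCACtggggaaga
Counted from 1 at the 5′ end of the window, with the base of Car2 first, Car8 carried C10A, A11G and C12A, which turn a histidine codon into an arginine codon. Car3 carried C12T, which keeps histidine, and the capitals of Car4 and Car14 were the same as those of Car2. Over the whole window, Car8 shared 15 of 27 bases with Car2, Car3 shared 20, Car14 shared 17 and Car4 shared 16.

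Levels between genes were compared as CPM per kilobase of merged exon. Car14 was the most abundant member, at 42.1 ± 5.16 CPM per kilobase (SD, n = 8 hearts, both genotypes), followed by Car4 at 10.3 ± 2.58 and by the inactive Car8 at 5.67 ± 0.581. Car3 came next at 4.42 ± 7.15, an SD above its mean, and then Car2 at 3.55 ± 1.50. The lower members were Car7 at 1.38 ± 0.154, Car13 at 0.463 ± 0.162, Car5b at 0.172 ± 0.0749, Car9 at 0.0824 ± 0.0447 and Car12 at 0.00382 ± 0.00411 CPM per kilobase. Per kilobase of merged exon, the ranges over hearts did not touch between Car14 and Car4, Car4 and Car8, Car7 and Car13, or Car9 and Car12. The ranges of the neighbours Car8 and Car3, Car3 and Car2, Car2 and Car7, Car13 and Car5b, and Car5b and Car9 overlapped. Compared within each heart per kilobase of merged exon, Car13 was above Car5b and Car5b above Car9 in all 8 hearts. Per kilobase of coding sequence, Car5b was above Car13 in HVCN1 null heart 3 (1.12 against 1.06) and WT heart 7 (2.28 against 2.25). The order of Car8 and Car3, of Car3 and Car2, and of Car2 and Car7 changed between hearts.

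**Figure D1:**
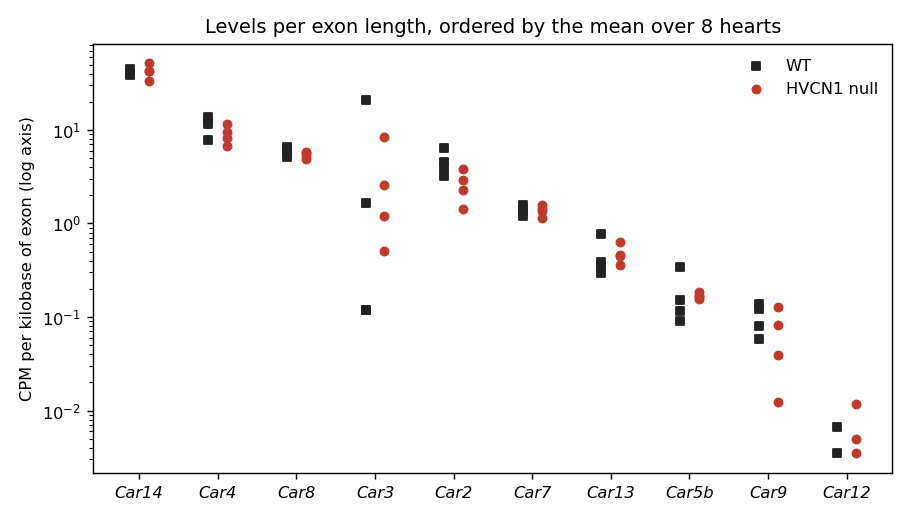
Level of each carbonic anhydrase as CPM per kilobase of merged exon (log axis), with 1 point per heart, black squares for WT and red circles for HVCN1 null. Car14 lies above every other member in all 8 hearts, Car3 runs from 0.118 to 20.8, and the 3 hearts without a Car12 count cannot be drawn on the log axis.

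Summed over the 10 members, the level was 64.9 ± 8.61 CPM per kilobase in HVCN1 null hearts and 71.2 ± 5.86 in WT hearts (SD, n = 4 each), with overlapping ranges of 52.5 to 72.3 and 64.9 to 79.0. Car14 alone made up 62.0% ± 6.28 of the sum over the 8 hearts. Its share was lowest, at 49.2%, in WT heart 7, where Car3 made up 26.3%, and highest, at 70.9%, in HVCN1 null heart 4. In WT heart 6, Car3 was 0.169% of the sum. In HVCN1 null hearts the Car4 share was 14.2% with an SD of 4.27 percentage points, and the Car3 share was 4.68% with an SD of 5.16. In WT hearts these SDs were 4.42 for Car4 and 12.8 for Car3.

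Of the 10 members, 8 passed the filter on low counts. In edgeR's quasi-likelihood test 0 of these reached an adjusted p under 0.05, where 1.14% of the 14796 tested genes were called (0.743% with more and 0.399% with less RNA in HVCN1 null hearts). At an unadjusted p under 0.05 there was 1 member, Car2, beside 11.0% of tested genes, and DESeq2, limma's voom, edgeR's exact test and its likelihood ratio test also called 0 members, though DESeq2 gave Car3 no adjusted p. CPM values of the genotypes overlapped for all 10 members, of which 8 were tested. They were apart for 7.06% of tested genes, so 0 among 8 does not set the members off from other genes. The log2 fold change, HVCN1 null over WT, was positive for 2 of the tested members and negative for 6, with a median of -0.10 against -0.01 over all tested genes. The signs for Car3, Car5b, Car7, Car13 and Car14 turned under at least 1 other setting or left-out heart. Members near the filter and those with wide scatter could hide moderate differences. In simulated counts for this comparison, on 14642 genes, changes were given to genes drawn at random. The test recovered 16.1% of genes changed by 0.5, 66.7% of those changed by 1 and 94.5% of those changed by 2 on the log2 scale. These rates do not describe widely scattered members such as Car3 and Car5b. Their SDs of log2 CPM within genotypes were at percentiles 99.9 and 91.7 of tested genes, and recovery for such members was not measured.

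**Figure D2:**
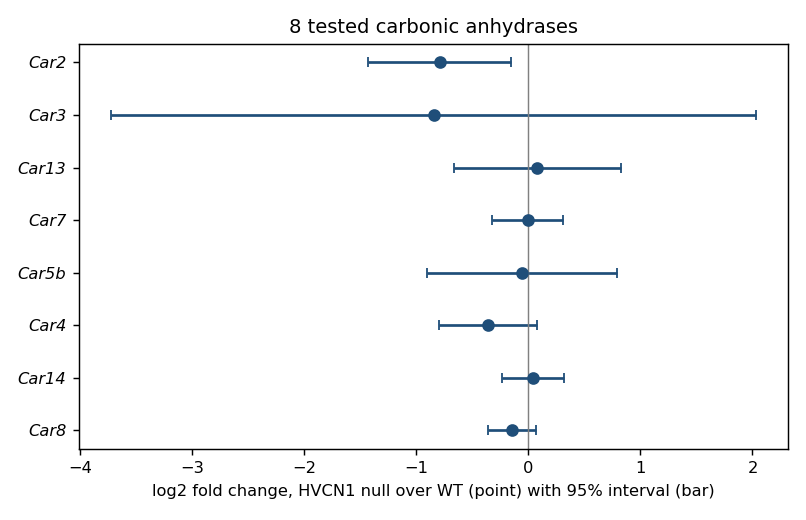
Log2 fold change of the 8 tested members, HVCN1 null over WT, from edgeR's quasi-likelihood fit (points) with 95% intervals (bars). Car2 has an interval below 0, from -1.43 to -0.15, the interval of Car3 runs from -3.72 to 2.03, and that of Car14 from -0.24 to 0.32.

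Car2, the fast cytosolic enzyme found in many tissues and abundant in red blood cells, was the member nearest to a difference between the genotypes. Its gene (ENSMUSG00000027562) lies on the plus strand of chromosome 3, from 14886273 to 14900770 in GRCm38. Its CPM values were 3.42, 7.01, 5.55 and 9.21 for HVCN1 null and 15.4, 7.88, 9.47 and 10.9 for WT, in the order of the heart numbers. HVCN1 null heart 4 lay above WT heart 6, and the other HVCN1 null hearts lay below every WT heart. The means were 6.30 ± 2.44 and 10.9 ± 3.24 CPM (SD, n = 4 each). The log2 fold change was -0.79 with a standard error of 0.29, and its 95% interval, from -1.43 to -0.15, corresponds to folds from 0.372 to 0.899. In edgeR's quasi-likelihood test the unadjusted p was 0.0198 and the adjusted p 0.309. A two-sided exact permutation test of the mean CPM gave p = 0.0571, where the smallest p that 70 assignments of 8 hearts allow is 0.0286.

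Erythroid transcripts moved with Car2. The 8 of 9 listed erythroid genes that were found, globins and other red cell genes, summed to 1320, 1312, 3230 and 8418 CPM in HVCN1 null hearts and 15236, 3037, 3964 and 5053 CPM in WT hearts. All 8 were highest in HVCN1 null heart 4 among the HVCN1 null hearts, and 7 of 8 were highest in WT heart 5 among the WT hearts, which were also the hearts highest in Car2. None of the 8 was at 0 in all hearts, 0 were called in edgeR's quasi-likelihood fit (1 at an unadjusted p under 0.05), and their median log2 fold change was -0.85. The largest was that of Hbb-bt, a beta globin, at -1.64 (adjusted p = 0.422, edgeR's quasi-likelihood test). Across the 8 hearts, log2 CPM of Car2 and the mean log2 CPM of the erythroid genes gave Pearson's r = 0.823 (two-sided exact permutation p = 0.0124, adjusted p = 0.0249 over 4 relations) and Spearman's rho = 0.857 (exact permutation p = 0.0107). Without hearts 1 and 2, the farthest from the median of the erythroid genes, r was 0.856 (exact permutation p = 0.0236, n = 6). The adjusted p rose to 0.0743 without HVCN1 null heart 1, 0.0839 without WT heart 5 and 0.0552 without WT heart 8 (exact permutation tests). The log2 fold change of Car2 and the median of the erythroid genes were both negative, so the genotype difference enters this r. Within a genotype there are only 4 hearts, too few for a correlation. HVCN1 null heart 2 had the lowest erythroid sum of the 8 hearts. Its Car2 level, 7.01 CPM, was above those of HVCN1 null hearts 1 and 3, at 3.42 and 5.55 CPM.

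With the erythroid level of each heart as a covariate, the log2 fold change of Car2 was -0.39 with a standard error of 0.26 (adjusted p = 0.548 in edgeR's quasi-likelihood test). With a heart left out it ran from -1.03 without HVCN1 null heart 4 to -0.56 without WT heart 5. The erythroid level was lowest in HVCN1 null hearts 1 and 2, so the covariate fit cannot set it apart from genotype. The part of red cell RNA in the Car2 difference was not tested. In RNA from bulk heart tissue, fewer cells of a type and less RNA per cell cannot be told apart. Among all tested genes, the patterns most like that of Car2 over the 8 hearts were those of Trpm2 (r = 0.959), Epb41, which encodes a protein of the red cell membrane skeleton (r = 0.951), Cisd2, Cd24a and Vstm4.

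Car3, the slow cytosolic enzyme known from skeletal muscle and fat cells, varied more between hearts than nearly any other gene. Its gene (ENSMUSG00000027559) lies 13749 bases before Car2 on the same strand of chromosome 3, from 14863512 to 14872523. Its CPM values were 1.47, 23.9, 7.45 and 3.42 in HVCN1 null hearts and 4.76, 0.340, 59.6 and 0.338 in WT hearts. WT heart 7 and HVCN1 null heart 2 stood highest, WT heart 5 lay among the other HVCN1 null hearts, and WT hearts 6 and 8 lay below all of them. The highest heart had 177 times the CPM of the lowest, and both were WT. The within-genotype SD of log2 CPM was 2.72, at percentile 99.9 of all tested genes, whose median SD was 0.206. The means were 9.06 ± 10.2 and 16.3 ± 29.0 CPM (SD, n = 4 each), and the log2 fold change of -0.84 had a standard error of 1.30 (adjusted p = 0.910, edgeR's quasi-likelihood test). The 95% interval, from 0.0758 to 4.09 as a fold, leaves a large difference in either direction undetectable with these hearts. Without WT heart 7 the log2 fold change was 2.27 (adjusted p = 0.477), and without hearts 2 and 7 it was 1.13 (adjusted p = 0.809, edgeR's quasi-likelihood test).

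The adipocyte genes followed the same hearts. The 8 genes, among them Adipoq (adiponectin), Plin1 (perilipin of the lipid droplet) and Cfd (adipsin), summed to 3.84, 34.3, 14.5 and 7.32 CPM in HVCN1 null hearts and 11.1, 1.33, 84.5 and 3.14 CPM in WT hearts. In HVCN1 null heart 2, 6 of 8 were at their highest among HVCN1 null hearts, and in WT heart 7, 7 of 8 were at their highest among WT hearts. No gene of the list was at 0 in all hearts, and 0 of the 6 that were tested were called in edgeR's quasi-likelihood fit (0 at an unadjusted p under 0.05). Their median log2 fold change was -0.71, and Pck1, an enzyme of glyceroneogenesis in fat, had the largest, -1.19 (adjusted p = 0.859), before Plin1 at -0.81 (adjusted p = 0.894, edgeR's quasi-likelihood test). Adipoq gave 6, 115, 25 and 20 counts in HVCN1 null hearts and 6, 1, 295 and 4 counts in WT hearts. Ucp1, the uncoupling protein of brown fat, gave 27 counts in HVCN1 null heart 2, 190 in WT heart 7 and 0 in the other 6 hearts. Both genes thus peaked in the hearts where Car3 peaked. For the brown fat genes as a list, the result depended on the measure. Their mean log2 CPM was highest in HVCN1 null heart 2 (1.98) and WT heart 7 (3.30) within their genotype. Their summed CPM was highest in HVCN1 null heart 4 (738) and WT heart 5 (756). Of the 5 genes, 1 was highest in HVCN1 null heart 2 and 3 in WT heart 7 within their genotype.

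Across the 8 hearts, Car3 and the adipocyte genes gave r = 0.986 (exact permutation p = 9.92e-05, adjusted p = 0.000397 over 4 relations) and rho = 0.952 (exact permutation p = 0.00114). Without hearts 6 and 7, r was 0.985 (exact permutation p = 0.00417, n = 6). The relation with the 9 skeletal muscle genes did not pass, at r = 0.706 (exact permutation p = 0.0510, adjusted p = 0.0681) and rho = 0.738 (exact permutation p = 0.0458), and without hearts 1 and 8 r was 0.754 (exact permutation p = 0.0806, n = 6). It passed without HVCN1 null heart 1, with r = 0.835 and an adjusted p of 0.0393 (exact permutation test, n = 7), and with library sizes not scaled. The skeletal muscle genes summed to between 14.6 and 30.0 CPM in HVCN1 null hearts and between 27.4 and 33.6 in WT hearts, and 0 of the 5 tested were called in edgeR's quasi-likelihood fit (1 at an unadjusted p under 0.05). Their largest log2 fold changes were those of Tnnt3, a fast troponin T, at -1.16 (adjusted p = 0.409), and Tnni2, a fast troponin I, at -0.89 (adjusted p = 0.653, edgeR's quasi-likelihood test). The fast myosins of skeletal muscle were nearly absent, with at most 7 counts per heart for Myh1 and Myh2 and at most 2 for Myh4. Of all tested genes, the patterns nearest to that of Car3 were those of Cfd (r = 0.991), Unc13b, Gcgr, Gprin3 and Cidec, a lipid droplet protein of fat cells (r = 0.983).

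**Figure D3:**
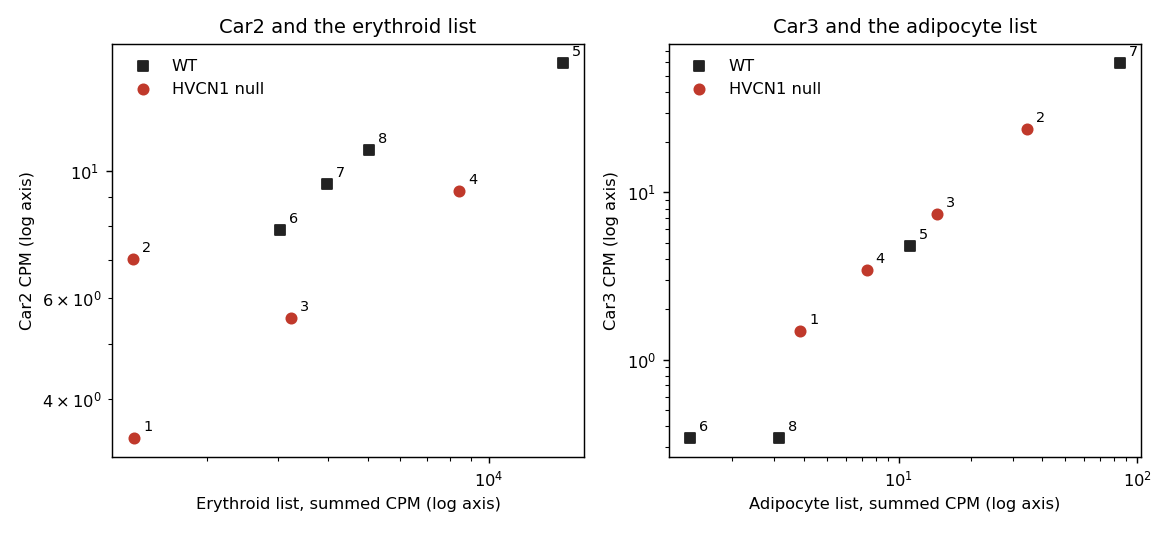
CPM of Car2 against the summed CPM of 8 erythroid genes (left) and CPM of Car3 against the summed CPM of 8 adipocyte genes (right), all on log axes, with 1 point per heart labelled by its number. WT heart 5 is highest in both measures on the left, and WT heart 7 followed by HVCN1 null heart 2 are highest in both on the right.

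Atrial transcripts marked the same pair of hearts. The 7 atrial genes, with Nppa (atrial natriuretic peptide) and Sln (sarcolipin) among them, were each highest in HVCN1 null heart 2 and in WT heart 7 within their genotype. Their sum was 380, 4742, 3785 and 400 CPM in HVCN1 null hearts and 3362, 185, 8706 and 172 CPM in WT hearts, and 0 of the 6 tested were called in edgeR's quasi-likelihood fit (0 at an unadjusted p under 0.05). Sln had a log2 fold change of -0.72 and Myl7, the atrial light chain, of -0.45. With the atrial level as a covariate, the log2 fold change of Car3 was 0.05 with a standard error of 0.28 (adjusted p = 0.972, edgeR's quasi-likelihood test), and 0 members were called. Fat, atrial tissue and the mesothelial genes, of which 5 and 6 of 6 were highest in those hearts, cannot be told apart as companions of Car3 with 8 hearts.

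Car5b and Car13 shared the pattern of Car3 at much lower levels. Car5b, the mitochondrial enzyme (ENSMUSG00000031373, minus strand of chromosome X, 163976822 to 164027997), had a CPM of 0.991, 1.18, 1.06 and 1.07 in HVCN1 null hearts and 0.962, 0.742, 2.17 and 0.574 in WT hearts. WT heart 7 stood apart above all others, and the remaining WT hearts lay below all HVCN1 null hearts. For Car5b the log2 fold change was -0.06 with a standard error of 0.38 (adjusted p = 0.988, edgeR's quasi-likelihood test), and 0.50 without WT heart 7 (adjusted p = 0.585).

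Car13, a cytosolic enzyme (ENSMUSG00000027555, plus strand of chromosome 3, 14641727 to 14663002), had a CPM of 1.02, 1.47, 0.836 and 1.05 in HVCN1 null hearts and 0.886, 0.804, 1.77 and 0.675 in WT hearts. The groups overlapped, with WT heart 7 highest and HVCN1 null heart 2 next. For Car13 the log2 fold change was 0.08 with a standard error of 0.34 (adjusted p = 0.978, edgeR's quasi-likelihood test), and 0.48 without WT heart 7. Over the 8 hearts, log2 CPM of Car3 and Car5b gave r = 0.911, Car5b and Car13 r = 0.906, and Car3 and Car13 r = 0.864, which are descriptions over the same libraries. Car3, Car5b, Car9 and Car13 were highest in HVCN1 null heart 2 and in WT heart 7 within their genotype, as were 11.1% of all tested genes. The genes nearest in pattern were Dennd2d (r = 0.988), Ccdc136, Cd44, Dtnb and Casp6 for Car5b, and Stxbp6 (r = 0.972), Plxnc1, Zfp689, Prss12 and Piezo2 for Car13.

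Car4, the membrane-anchored enzyme of capillary endothelium and myocyte membranes, ran the other way across hearts. Its gene (ENSMUSG00000000805) is on the plus strand of chromosome 11, from 84957786 to 84966044. Its CPM values were 18.9, 13.3, 22.8 and 16.0 in HVCN1 null hearts and 25.7, 26.9, 15.4 and 23.0 in WT hearts. HVCN1 null heart 2 and WT heart 7 were the lowest of their genotypes, and WT heart 7 lay among the HVCN1 null hearts while the other WT hearts lay above all of them. The means were 17.7 ± 4.07 and 22.7 ± 5.17 CPM (SD, n = 4 each), with a log2 fold change of -0.36 and a standard error of 0.20 (adjusted p = 0.580, edgeR's quasi-likelihood test). The 95% interval ran from 0.576 to 1.05 as a fold. Without WT heart 7 the log2 fold change of Car4 was -0.50 (adjusted p = 0.256), and without hearts 2 and 7 it was -0.39 (adjusted p = 0.374, edgeR's quasi-likelihood test).

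Some of the endothelial genes moved with Car4. Of the 10, 6 were lowest in HVCN1 null heart 2 and in WT heart 7 within their genotype, as Car4 was. One of these, Cldn5, a tight junction protein, had 42.1, 28.9, 38.2 and 39.7 CPM in HVCN1 null hearts and 40.7, 36.3, 24.8 and 29.9 CPM in WT hearts. Vwf, the von Willebrand factor, went the other way, with 156 CPM in HVCN1 null heart 2 and 191 in WT heart 7, the highest of their genotypes. The sum of the list ranged from 1091 to 1288 CPM in HVCN1 null hearts, where it was lowest in heart 4. In WT hearts it ranged from 1135 to 1334 CPM and was lowest in heart 8. The mean log2 CPM of the list was lowest in the same hearts. None of the 10 genes was at 0 in all hearts, and 0 were called in edgeR's quasi-likelihood fit (0 at an unadjusted p under 0.05). Vwf had a log2 fold change of -0.34 and Tek, an angiopoietin receptor, of -0.22. Car4 and the endothelial genes gave r = 0.509 (exact permutation p = 0.196, adjusted p = 0.196) and rho = 0.452 (exact permutation p = 0.268), and without hearts 5 and 8 r was 0.700 (exact permutation p = 0.121, n = 6). Log2 CPM of Car4 and Car13 gave r = -0.84, and of Car3 and Car4 r = -0.68, over the 8 hearts. Car4 and Car7 were lowest in HVCN1 null heart 2 and in WT heart 7, as were 9.0% of all tested genes. The patterns most like that of Car4 were those of Uros, an enzyme of heme synthesis (r = 0.972), Lims2, Fas, 2310022A10Rik and Hrct1.

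Car14, the dominant transmembrane enzyme, had a within-genotype SD of log2 CPM of 0.193, at percentile 45.7 of tested genes. Its gene (ENSMUSG00000038526) is on the minus strand of chromosome 3, from 95897768 to 95904691, far from the cluster of Car13, Car1, Car3 and Car2. Its CPM values were 84.3, 110, 110 and 130 in HVCN1 null hearts and 104, 114, 98.9 and 104 in WT hearts. The WT hearts all lay inside the range of the HVCN1 null hearts, whose lowest was heart 1 and highest heart 4. The means were 108 ± 18.9 and 105 ± 6.34 CPM (SD, n = 4 each), and the log2 fold change was 0.04 with a standard error of 0.13 (adjusted p = 0.962, edgeR's quasi-likelihood test). The 95% interval of the fold ran from 0.850 to 1.25. Over 445 bases, 17.5% of its exon length, Car14 overlaps Aph1a on the opposite strand, and the strand setting of the counting is not given in the sources used here, so reads of Car14 and Aph1a cannot be told apart there. Its nearest patterns were those of Gps1 (r = 0.986), Get4, Dnal4, Nme2 and Rilpl1.

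**Figure D4:**
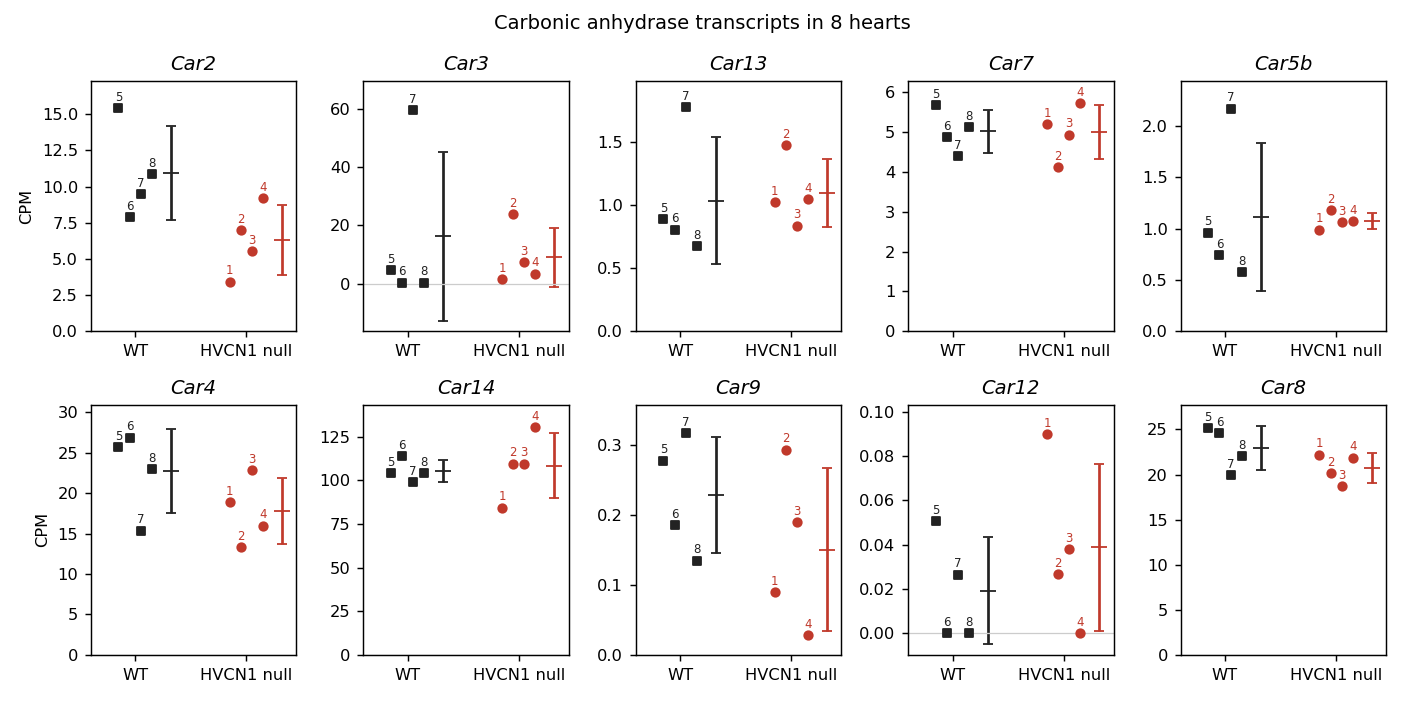
CPM of each of the 10 carbonic anhydrases in every heart, with its own linear axis per gene, points labelled by heart number, WT as black squares and HVCN1 null as red circles, and the mean and SD of each group as a bar (n = 4). The genotypes overlap for every gene, and hearts 2 and 7 are highest within their genotype for Car3, Car5b, Car9 and Car13 and lowest for Car4 and Car7.

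Car8 and Car7 had the smallest scatter. Car8, the inactive member (ENSMUSG00000041261, minus strand of chromosome 4, 8143362 to 8239041), known as a binding partner of the inositol trisphosphate receptor, had a CPM of 22.2, 20.1, 18.7 and 21.9 in HVCN1 null hearts and 25.2, 24.6, 19.9 and 22.1 in WT hearts. WT hearts 5 and 6 were above all HVCN1 null hearts and the other WT hearts lay among them. For Car8 the log2 fold change was -0.14 with a standard error of 0.10 and a 95% interval from -0.36 to 0.07 (adjusted p = 0.703, edgeR's quasi-likelihood test). Its within-genotype SD of log2 CPM, 0.136, was at percentile 23.5 of tested genes. The patterns most like that of Car8 were those of Tmem60 (r = 0.932), Naa60, Plk2, 4930453N24Rik and Zfp830.

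Car7, a cytosolic enzyme best known from neurons (ENSMUSG00000031883, plus strand of chromosome 8, 104534689 to 104550343), had a CPM of 5.19, 4.12, 4.94 and 5.74 in HVCN1 null hearts and 5.67, 4.88, 4.39 and 5.13 in WT hearts. The groups were interleaved, and no heart stood apart. The log2 fold change of Car7 was -0.01, with a 95% interval from -0.33 to 0.31 (adjusted p = 0.997, edgeR's quasi-likelihood test), and its sign turned with the scaling of the libraries. Its nearest patterns were those of S1pr4 (r = 0.935), Derl2, Fam53a and Ighd, an immunoglobulin gene of B cells.

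Car9 and Car12, the transmembrane enzymes known as targets of hypoxia in tumours, were too low to pass the filter. Car9 (ENSMUSG00000028463, plus strand of chromosome 4, 43506966 to 43513729) gave 3, 11, 5 and 1 counts in HVCN1 null hearts and 11, 6, 12 and 4 in WT hearts. The genotypes overlapped, and the ratio of their summed counts per effective library, 0.638, had a 95% interval from 0.347 to 1.14 that covers counting error only (exact permutation p = 0.343 on mean CPM, n = 4 each). Over 214 bases, 9.29% of its exon length, Car9 overlaps the antisense gene Gm12454. Car12 (ENSMUSG00000032373, plus strand of chromosome 9, 66713686 to 66766845) gave 3, 1, 1 and 0 counts in HVCN1 null hearts and 2, 0, 1 and 0 in WT hearts. Its ratio of 1.75 had a counting interval from 0.341 to 11.3 (exact permutation p = 0.457, n = 4 each), so a difference was not detectable at this depth. The other 15 hypoxia-induced genes listed were all tested, and 0 were called in edgeR's quasi-likelihood fit (2 at an unadjusted p under 0.05), with a median log2 fold change of -0.06. Ddit4, an inhibitor of mTORC1 signalling, had the largest, 0.46 (adjusted p = 0.307), and Egln3, an oxygen-sensing prolyl hydroxylase, had -0.41 (adjusted p = 0.262, edgeR's quasi-likelihood test).

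On chromosome 3, Car13, Car1, Car3 and Car2 lie in that order, with 103213, 55143 and 13749 bases between neighbours. Neighbours did not share a pattern over the hearts as a rule, since Car2 and Car3 gave r = 0.04 and Car2 and Car13 r = -0.09, whereas Car3 and Car13 gave r = 0.864. Car1, the red cell enzyme between Car13 and Car3, gave 1 count in HVCN1 null heart 4 and 1 in WT heart 5. The paralogs were not near-identical: the closest stretch between transcripts of Car2 and Car3 was 67.4% identical over 684 bases.

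Of the 8 other genes of the family, 4 were tested and 0 were called in edgeR's quasi-likelihood fit (0 at an unadjusted p under 0.05). Car11, an inactive secreted member, had a CPM of 7.42, 8.53, 11.7 and 5.45 in HVCN1 null hearts and 6.30, 5.93, 6.72 and 3.17 in WT hearts. HVCN1 null hearts 1 to 3 were above every WT heart and heart 4 lay among them, with a log2 fold change of 0.57 and a standard error of 0.27 (adjusted p = 0.473, edgeR's quasi-likelihood test). Ptprg and Ptprz1, receptor phosphatases with a carbonic anhydrase-like domain, had log2 fold changes of 0.02 and 0.50 (adjusted p = 0.990 and 0.676). Car15 had 0.03 (adjusted p = 0.996) and is uncertain, because 65.7% of its exon length is shared with Gm20518 on the same strand. Car10, another inactive member, gave 9 counts in all for HVCN1 null and 2 for WT, a ratio of 4.73 with a counting interval from 0.980 to 45.0 (exact permutation p = 0.0286, the smallest possible, n = 4 each). Car6, the secreted enzyme, gave 2 and 3 counts, and Car5a, the mitochondrial enzyme of liver, gave 0 counts in all 8 hearts, which allows up to 0.0110 CPM for 3 counts over the 8 libraries.

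Among 24 other genes of CO2, bicarbonate and proton transport, 15 were tested and 1 was called by edgeR's quasi-likelihood test (3 at an unadjusted p under 0.05). Over all tested genes, 1.14% were called and 11.0% had an unadjusted p under 0.05 in the same test. Slc16a7, the proton-coupled monocarboxylate transporter MCT2, had a CPM of 15.7, 9.52, 13.5 and 14.7 in HVCN1 null hearts and 7.52, 5.87, 8.62 and 4.90 in WT hearts. Every HVCN1 null heart was above every WT heart, and the log2 fold change was 0.98 with a standard error of 0.20 (adjusted p = 0.0498, edgeR's quasi-likelihood test). This call sat at the threshold: over 19 alternatives the adjusted p of Slc16a7 ran from 0.000295 to 0.173, 10 of them did not pass, and leaving out any heart but 2 or 7 ended the call. It was 0.147, 0.122 and 0.105 without HVCN1 null hearts 1, 3 and 4, and 0.106, 0.173 and 0.105 without WT hearts 5, 6 and 8 (edgeR's quasi-likelihood test).

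Of the 15 tested genes, 13 had overlapping CPM values, and the 2 that were apart, Slc16a7 and Slc4a2, were higher in every HVCN1 null heart. CPM values of the genotypes were apart, in either direction, for 7.06% of all tested genes. Slc4a2, the chloride-bicarbonate exchanger AE2, had a CPM of 41.3, 38.98, 44.9 and 38.8 for HVCN1 null and 37.0, 31.8, 33.8 and 38.5 for WT. Its gap between the groups was small, and its log2 fold change of 0.22, with a standard error of 0.09, did not pass (unadjusted p = 0.0335, adjusted p = 0.395, edgeR's quasi-likelihood test). Slc26a6, another chloride-bicarbonate exchanger, had 6.49, 7.68, 7.90 and 8.79 CPM for HVCN1 null and 8.22, 8.44, 10.6 and 10.4 for WT. Only HVCN1 null heart 4 reached into the WT range, and the log2 fold change of Slc26a6 was -0.29 with a standard error of 0.13 (adjusted p = 0.474, edgeR's quasi-likelihood test).

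Slc4a3, the chloride-bicarbonate exchanger of cardiac muscle, had a CPM of 262, 254, 299 and 283 for HVCN1 null and 246, 255, 249 and 302 for WT. The groups overlapped, with a log2 fold change of 0.06 (adjusted p = 0.918, edgeR's quasi-likelihood test). Slc4a1, the band 3 exchanger of red cells, had 2.34, 2.22, 4.03 and 12.1 CPM for HVCN1 null and 20.9, 8.04, 9.31 and 9.66 for WT. Like Car2, Slc4a1 was highest in HVCN1 null heart 4 and WT heart 5, and its log2 fold change was -1.21 with a standard error of 0.53 (unadjusted p = 0.0442, adjusted p = 0.432, edgeR's quasi-likelihood test).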

How the data were processed

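The authors selected poly-A RNA from 8 hearts, aligned paired reads with STAR to mm10 (GRCm38) per the submitters' processing notes, and counted reads per gene with featureCounts. The deposited values are these raw counts, and versions and strand setting are not given in the sources used here. Of the identifiers, 38872 (99.53%) matched GENCODE M21, which gave symbols, positions, exon lengths and transcripts.

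CPM values used TMM library sizes (edgeR 4.0.16, R 4.3.3), and log2 CPM a prior count of 2. Genes kept by filterByExpr were fitted with edgeR's quasi-likelihood test over the 8 hearts, and p-values were adjusted over all 14796 by Benjamini-Hochberg, with a threshold of 0.05. Single values and correlations were tested by two-sided exact permutation. Alternatives used 2 other scalings, 2 other filters, DESeq2 1.42.0, limma 3.58.1 (voom), edgeR's exact test and its likelihood ratio test, an adjusted p under 0.01, atrial and erythroid covariates and each heart left out. Leaving out hearts 2 and 7 together was added after seeing the data. Levels per length were also computed with coding length in place of merged exons. Fits were tested on simulated data. Similar transcripts were sought with BLAST+ 2.17.0.

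The members and the 15 other lists were chosen with earlier results of these data known. Named genes are all members, family genes with counts, called genes of the other lists or otherwise the 2 with the largest absolute log2 fold change, and the 5 genes most like each tested member. Adipoq, Ucp1, the fast myosins, Cldn5, Slc4a1, Slc4a2, Slc4a3, Slc26a6 and Car5a were named after their values were seen. Some genes that these rules select are not reported here, but the list counts and sums hold them. Intervals on counts cover counting error only.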

Additional observations from a re-analysis of the deposited data

Results flagged for a closer look

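In the WT hearts, Car3 had 1 value far from the others: WT heart 7 had 59.6 CPM, and its gap to the next WT heart was 0.925 of the whole range of the group, above Dixon's 95% critical value for 4 samples. Over the 20 groups examined (10 members in 2 genotypes), 1 value stood out in this way, and chance gives about 1 in 20. Adipocyte genes in that heart summed to 84.5 CPM and atrial genes to 8706 CPM, the highest of the 8 hearts, and the part of either in the Car3 value was not tested.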

How the results depend on the processing

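No carbonic anhydrase was called under any of the 20 alternatives. Over all genes, 169 calls became 367 with edgeR's exact test, 376 with its likelihood ratio test, 466 with DESeq2, 96 with the erythroid covariate, 56 at an adjusted p under 0.01, and 71 to 152 with a heart left out. No paired analysis was possible because no pairing of hearts between the genotypes is given in the sources used here.

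The sign turned for 5 members, and the cause was not tested. The log2 fold change of Car3 was 0.98 with voom, 0.053 with the atrial covariate and 1.13 without hearts 2 and 7, and ran from -2.01 to 2.27 with a heart left out. That of Car5b was 0.10 with voom, 0.45 without hearts 2 and 7, and -0.26 to 0.50 with a heart left out. That of Car7 was 0.0061 with RLE scaling, 0.031 unscaled, 0.0055 with DESeq2, 0.020 with the atrial and 0.14 with the erythroid covariate, 0.023 without hearts 2 and 7, and -0.081 to 0.077 with a heart left out. That of Car13 was -0.0012 with the atrial and -0.12 with the erythroid covariate, and -0.10 to 0.48 with a heart left out. That of Car14 was -0.059 to 0.15 with a heart left out. Car2 stayed between -1.03 and -0.39, Car4 between -0.50 and -0.24 and Car8 between -0.20 and -0.09 over 19 alternatives.

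With a heart left out, r was 0.730 to 0.942 for Car2 and the erythroid genes, 0.982 to 0.995 for Car3 and the adipocyte genes, 0.602 to 0.835 for Car3 and the skeletal muscle genes and 0.358 to 0.776 for Car4 and the endothelial genes. With library sizes not scaled, r of Car3 and the skeletal muscle genes was 0.767 (adjusted exact permutation p = 0.0377) and that of Car4 and the endothelial genes 0.252 (adjusted exact permutation p = 0.552). Car9 and Car12 were limited by depth, with at most 12 and 3 counts per heart. With coding length in place of merged exons, the mean Car14 share of the summed level was 56.4%.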

Other observations

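The remaining lists gave 0 calls by edgeR's quasi-likelihood test. Over all tested genes, 11.0% had an unadjusted p under 0.05 in that test, the share to set beside the counts below. Of 4 tested Schwann cell and neuron genes, all 4 had a positive log2 fold change (3 at an unadjusted p under 0.05), and their list summed to between 15.03 and 21.3 CPM in HVCN1 null hearts and between 7.66 and 14.7 CPM in WT hearts, without overlap. Sox10, a transcription factor of glia, had 4.04 ± 0.684 CPM in HVCN1 null hearts and 2.12 ± 0.746 in WT hearts (SD, n = 4 each), with a log2 fold change of 0.93 and an adjusted p of 0.158 in edgeR's quasi-likelihood test.

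All 10 macrophage genes had a negative log2 fold change (4 at an unadjusted p under 0.05, median -0.31), with sums of 223 to 289 CPM for HVCN1 null and 254 to 361 CPM for WT. Adgre1, which encodes F4/80, had a log2 fold change of -0.52 (adjusted p = 0.202), and Fcgr1, an Fc receptor, -0.63 (adjusted p = 0.253, edgeR's quasi-likelihood test). The 8 cardiomyocyte genes had a median of -0.05 (1 at an unadjusted p under 0.05). Among them Actc1, cardiac actin, had 6357 ± 279 CPM in HVCN1 null hearts and 9032 ± 1260 in WT hearts (SD, n = 4 each) without overlap, with a log2 fold change of -0.51 (adjusted p = 0.105, edgeR's quasi-likelihood test), and Ryr2, the calcium release channel, had -0.16. Of 6 fibroblast genes, 5 had a negative log2 fold change, with sums of 775 to 1231 CPM and 831 to 1336 CPM, and Pdgfra and Lum had the largest, -0.30 and -0.22. The 6 mesothelial genes had a median of -0.34 and the 3 tested brown fat genes a median of -0.18, with 0 of either and of the fibroblast genes at an unadjusted p under 0.05. The largest log2 fold changes were those of Lrrn4 (-0.86) and Krt19 (-0.71) among mesothelial genes, and of Dio2 (-1.12) and Cidea (-0.18) among brown fat genes.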
